A study of Mus musculus with 9 samples.

Results

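The regions described here are stretches of the mouse genome that TWIST1 chromatin immunoprecipitation (ChIP-seq) marked in every overexpressing library and that lie between genes but within reach of one. They were chosen by peak calls: overlapping peaks (1 bp or more) of the 4 Twist1-OE ChIP libraries were joined, keeping those regions that all 4 libraries supported and that no peak of the Twist1-KO ChIP or Twist1-KO input libraries touched. The position of a region is the mean over libraries of the summit of its strongest peak. A region is called intergenic here when that position lay outside every protein-coding gene and 1 to 100 kb from the nearest one. Of 10168 such reproducible regions on chromosomes 1 to 19, 2447 (24.1%) were intergenic. The others lay within 1 kb of a gene end (3174), deeper inside a gene (3610) or more than 100 kb from any gene (937). Without OE library 4 there were 4693 intergenic regions. With peaks limited to a −log10 q of at least 10 there were 1612, and OE libraries 2 and 3 alone, a choice made after seeing the data, gave 22894.

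The cells were embryoid bodies, aggregates grown from mouse embryonic stem cells, labelled C57BL/6 and driven towards neuroepithelium for 3 days. The OE cells came from the A2loxcre line, were Twist1-/- and carried a doxycycline-inducible Flag-Twist1, so their TWIST1 is the induced protein and not the endogenous one. The KO cells were Twist1-/- without the cassette, and both received doxycycline for 16 h, so the deletion and the drug are common to all libraries. Of the 9 libraries in the series, 4 were OE ChIP, 2 were KO ChIP and 1 was a KO input, while 2 inputs of OE cells were not used here. The replicates are described as biological, and nothing says how many clones stand behind each genotype. Peak lists hold no expression values, so the cell type cannot be checked from them.

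TWIST1 is a basic helix-loop-helix (bHLH) transcription factor known for its roles in mesoderm, cranial neural crest and epithelial-mesenchymal transition (EMT). Factors of this family bind DNA as dimers, at the E-box, whose letters are CANNTG, and TWIST1 has been described to favour pairs of E-boxes at a fixed spacing. Distal sites of such factors often lie in enhancers, which act on genes at a distance, so the nearest gene to a site is a label for its place and not a known target.

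No genome sequence was used here, but 35 of the regions had their position inside the RefSeq promoter window of a long non-coding RNA (lncRNA) gene. Such a window runs from 250 bases before to 50 after the start of the gene. Among the regions only these could be searched, and they do not stand for all 2447. E-boxes were counted over the whole window, and at Gm16897 the nearest lay 236 bases from the position. Of the 35 windows, 29 (82.9%) held at least 1 E-box, against 78.3% of all 11311 lncRNA windows. Pairs of E-boxes whose first bases lie 11 apart were found in 7 of the 35, against 0.964% of all lncRNA windows. At each of 14 other distances from 6 to 20 bases, 0 to 3 of the 35 windows held a pair, against 0.858% to 1.67% of all lncRNA windows. CANNTG reads the same on both strands, so each was counted once. The window of Gm5082 holds 3 of the pairs, and in it some E-boxes overlap each other. These searches were added after seeing the data, and a match describes letters, not a bound site.

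The next 6 stretches are shown because each holds such a pair, and the window of Gm5082 is left out. They run 50 bases to either side of the region's position, or to the end of the window, 5′ to 3′ on the strand of the lncRNA (RefSeq, GRCm38.p6). Capitals mark E-boxes.
C330002G04Rik (chr19:23075912-23076012, minus strand): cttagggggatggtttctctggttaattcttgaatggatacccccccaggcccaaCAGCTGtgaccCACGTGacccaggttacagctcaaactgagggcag
Gm31615 (chr17:88388609-88388664, minus strand): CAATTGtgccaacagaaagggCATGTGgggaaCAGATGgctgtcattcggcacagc
5830454E08Rik (chr9:120577102-120577202, plus strand): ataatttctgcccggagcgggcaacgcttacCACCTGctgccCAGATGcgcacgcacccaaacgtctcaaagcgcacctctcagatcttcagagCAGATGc
Gm32297 (chr4:108390814-108390914, plus strand): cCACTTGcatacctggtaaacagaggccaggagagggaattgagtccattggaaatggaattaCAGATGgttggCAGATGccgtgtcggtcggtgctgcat
Gm30713 (chr8:125385817-125385917, plus strand): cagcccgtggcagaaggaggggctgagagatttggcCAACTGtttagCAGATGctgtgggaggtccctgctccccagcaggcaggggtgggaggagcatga
Gm31619 (chr2:167589567-167589667, minus strand): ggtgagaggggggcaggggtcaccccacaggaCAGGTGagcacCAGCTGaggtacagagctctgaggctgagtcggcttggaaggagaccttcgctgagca

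The regions at these windows lay in the intergenic space next to Klf9, Foxn2, Rpl14, Shisal2a, Sipa1l2 and Ube2v1, in that order. Fold enrichments over local background are the authors' values for single peaks, and sets of 4 are given throughout for OE libraries 1 to 4 in that order. At C330002G04Rik, next to the Krüppel-like factor gene Klf9, the folds were 50.5, 147, 131 and 31.6, and the 4 summits lay within 4 bp of each other. At Gm31615, next to the forkhead gene Foxn2, the folds were 36.9, 178, 119 and 21.3. Both regions were highest in OE libraries 2 and 3 and lowest in OE library 4. Of the 6 windows with no E-box, the 3 whose regions rank highest are shown for contrast.
Gm9530 (chr1:155083319-155083419, minus strand): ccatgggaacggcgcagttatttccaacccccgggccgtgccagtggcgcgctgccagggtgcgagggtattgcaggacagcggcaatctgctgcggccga
Gm31125 (chr4:106840112-106840171, minus strand): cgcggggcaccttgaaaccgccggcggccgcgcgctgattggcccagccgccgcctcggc
Gm40716 (chr10:80475471-80475571, minus strand): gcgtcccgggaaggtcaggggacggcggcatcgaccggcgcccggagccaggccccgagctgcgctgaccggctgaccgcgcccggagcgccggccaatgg

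These lay next to Ier5, Acot11 and Onecut3, and their folds ran the other way. At Gm9530 the folds were 74.9, 7.52, 10.6 and 35.4, so OE libraries 1 and 4 were the high ones. At Gm31125 they were 29.4, 8.46, 10.0 and 22.7, and at Gm40716 they were 20.5, 4.39, 3.81 and 17.3. Of the 35 regions at lncRNA windows, 22 had higher folds in OE libraries 2 and 3. The other 13 had higher folds in OE libraries 1 and 4, as did 19.7% of all intergenic regions. An E-box was found in 22 of the 22 windows and in 7 of the 13. The paired form was found in 7 of the 22 and in 0 of the 13, and an E-box centred within 25 bases of the position in 14 of the 22 and 3 of the 13. Among all lncRNA windows, 24.5% held an E-box that close to the middle of the window. These counts have no test, since folds divided the regions and the windows are few.

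Of 919 microRNA (miRNA) hairpins on chromosomes 1 to 19, 14 lay within 2 kb of an intergenic region, a distance chosen after seeing the data. They lay at 9 regions in all, since clustered hairpins share a region. The share of other genes or sites this close to a region was not measured. The count therefore does not say whether hairpins lie near these regions more often than other places do. Several belong to families with known roles in epithelial identity or growth. miR-200c and miR-141 repress the EMT regulators Zeb1 and Zeb2, miR-203 is an epithelial miRNA of the skin, and the cluster that begins with miR-17 promotes proliferation. Their mature sequences follow from RefSeq, 5′ to 3′, with the seed (bases 2 to 8) in capitals.
miR-200c-3p: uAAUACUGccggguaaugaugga
miR-141-3p: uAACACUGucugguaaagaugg
miR-203-3p: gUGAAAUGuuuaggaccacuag
miR-17-5p: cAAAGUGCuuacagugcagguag
miR-20a-5p: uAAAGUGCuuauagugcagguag
miR-18a-5p: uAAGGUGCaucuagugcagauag
miR-19a-3p: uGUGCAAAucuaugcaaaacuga
miR-210-3p: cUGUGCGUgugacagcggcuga
miR-193a-3p: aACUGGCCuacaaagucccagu

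The seed AAAGUGC is shared by miR-17-5p and miR-20a-5p, and the other 7 shown have a seed each. The region at Mir200c lay 506 bp upstream of that hairpin and 911 bp upstream of Mir141, between Ptpn6 and Phb2 on chromosome 6, with folds of 6.49, 13.3, 20.02 and 6.81. The region at Mir203 lay 127 bp upstream of the hairpin, 3180 bp from Aspg on chromosome 12, with folds of 51.9, 3.76, 4.77 and 25.4. Its summits were spread over 686 bp, so these distances are those of their mean. The region at the Mir17 cluster lay 1445 bp upstream of Mir17 on chromosome 14, with folds of 43.9, 14.4, 9.85 and 25.4. The first of these was higher in OE libraries 2 and 3, and the other two were higher in OE libraries 1 and 4. At Mir210, a miRNA induced by low oxygen, the region lay 424 bp upstream with folds of 5.49, 13.9, 14.3 and 6.36. At Mir193a the region lay 816 bp upstream with folds of 28.4, 3.13, 4.29 and 13.6, and its summits were spread over 478 bp. Mir375, a miRNA of pancreatic islets and other endocrine cells, had a region 85 bp downstream with folds of 38.9, 40.7, 45.3 and 31.3, with no clear lead of either set of libraries. The other regions were at Mir3091, Mir7229 and Mir7688, and their folds lay between 9.08 and 55.95.

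The libraries set the scale of all these values. OE libraries 1 to 4 listed 22388, 106821, 87441 and 14160 peaks, KO libraries 2 and 3 listed 104 and 71, and the KO input listed 1774. The number of reads per library is unknown here. A pileup of fragments at each summit and its background were instead solved from the deposited fold and p-value together, and the pileup came out whole, to within 0.05, in 100% of the regions of each class. The commonest background was 1.00, 5.38, 5.29 and 1.2 fragments in OE libraries 1 to 4. Libraries 1 and 4 thus had low background and libraries 2 and 3 high background. These sets are defined by background and are not groups of the study.

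The first comparison asked whether OE and KO peaks fell in intergenic space to different extents, using every listed peak on chromosomes 1 to 19. The share of peaks 1 to 100 kb outside genes was 27.3%, 32.4%, 32.3% and 23.8% in OE libraries 1 to 4 (mean 28.95% ± 4.19, SD, n = 4), against 29.6% and 26.9% in KO libraries 2 and 3 (mean 28.3% ± 1.91, SD, n = 2). The ranges of the OE and KO libraries overlapped. The difference of 0.677 percentage points was smaller than the spread between libraries (two-sided exact permutation test over 15 splits, p = 0.933, where the smallest p possible is 0.0667). The KO shares rest on 24 of 81 and 14 of 52 peaks, with 95% Wilson intervals of 20.8% to 40.3% and 16.8% to 40.3%, which cover counting error only. The KO input had 26.3% of its 1602 peaks there. With distances taken to all annotated genes in place of protein-coding ones, the difference was -13.95 points, with an exact permutation p of 0.0667. Removing regions with a KO or input peak took out 57 of 2504 intergenic regions (2.28%), against 10.9% of those at gene ends and 2.85% of those deeper inside genes.

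Among regions that all 4 OE libraries listed, intergenic ones had higher folds than gene-end ones in OE libraries 2 and 3. In OE libraries 1 and 4 they had lower folds. Their median folds were 13.97, 28.5, 25.4 and 9.53 in OE libraries 1 to 4, against 17.97, 6.58, 6.83 and 13.2 at gene ends and 15.5, 23.9, 21.6 and 10.4 deeper inside genes. The median log2 fold differed between intergenic and gene-end regions by -0.36, 2.12, 1.90 and -0.47 in the 4 libraries (mean 0.80 ± 1.40, SD, n = 4), and the mean did not exceed the spread between libraries (two-sided exact sign-flip permutation test, p = 0.5, adjusted over 4 class comparisons p = 0.75). Against regions deeper inside genes the mean difference was 0.05 ± 0.22 (SD, n = 4; same exact permutation test, p = 0.75, adjusted p = 0.75). With 4 libraries this test cannot give a p under 0.125. The difference from gene ends depended on which libraries had to list a region. Its mean was 0.33 when at least 3 of the 4 had to. It was 0.13 with OE libraries 2 and 3 only and -0.38 with OE libraries 1 and 4 only, both choices made after seeing the data. Folds alone hide how many fragments lay under the summits. The median pileup of intergenic regions was 27, 183, 162 and 20 fragments, against 35, 41, 42 and 28 at gene ends, so in both classes OE libraries 2 and 3 had the most fragments.

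**Figure D1:**
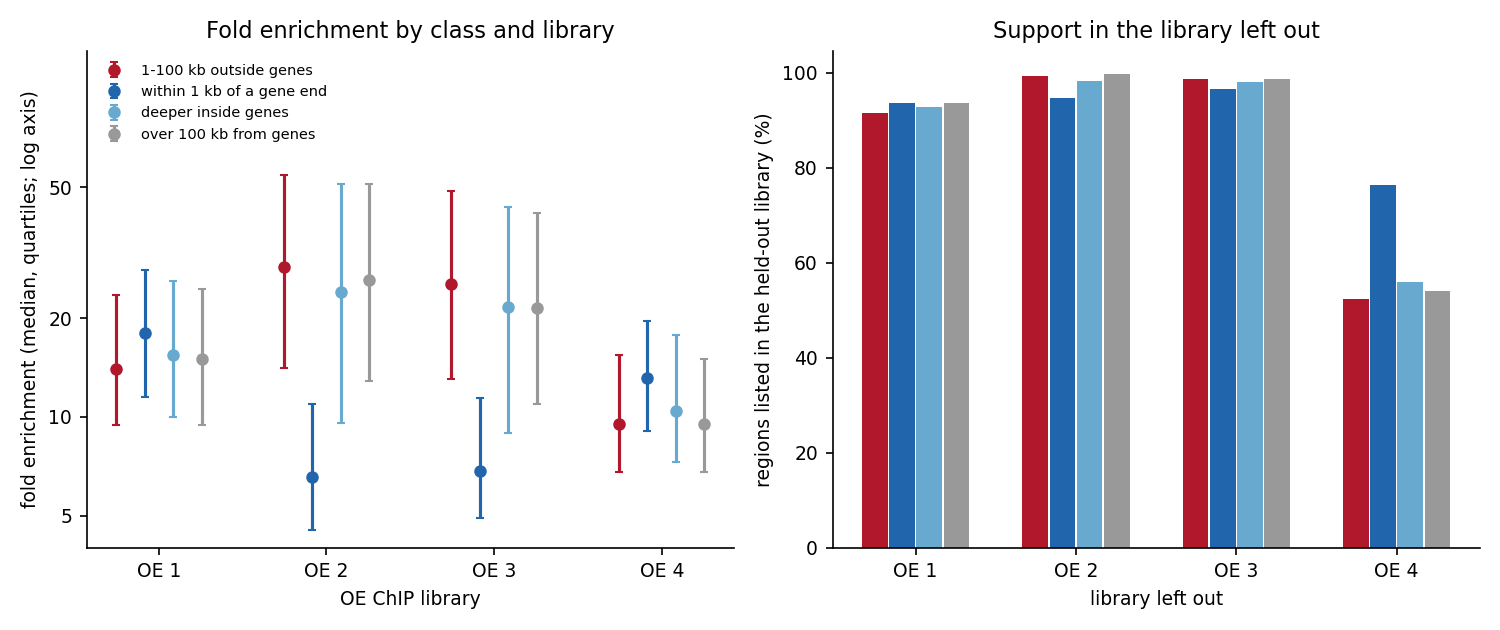
Left, median fold enrichment with quartiles (log axis) of intergenic, gene-end, deeper and distant regions in OE libraries 1 to 4. Right, share of regions built from 3 OE libraries that the library left out also listed. The regions on the left were listed by all 4 libraries. Among them, intergenic regions lie above gene-end regions in OE libraries 2 and 3 (28.5 and 25.4 against 6.58 and 6.83). In OE libraries 1 and 4 they lie below.

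Support in a library that took no part in choosing the regions was measured by building regions from 3 OE libraries and asking whether the other one listed them. OE libraries 1 to 4 listed 91.5%, 99.4%, 98.8% and 52.3% of intergenic regions chosen without them, against 93.8%, 94.7%, 96.5% and 76.5% of gene-end regions. Library 4, with the shortest list, missed most: it held 2455 of the 4693 intergenic regions that the other libraries shared. The mean difference was -4.88 points ± 13.2 (SD, n = 4; two-sided exact sign-flip permutation test, p = 0.75, adjusted p = 0.75). Against regions deeper inside genes it was -0.81 points ± 2.21 (SD, n = 4; exact permutation p = 0.625, adjusted p = 0.75). When a summit within 100 bp was also required, the first difference was 9.86 points and the second 0.528, so both turned direction, and neither passed (exact permutation p = 0.375 and 0.5).

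Summits of the 4 libraries met closely at intergenic regions. The distance between the outermost of the 4 summits had a median of 51 bp, and 69.8% of regions kept it to 100 bp or less. At gene ends the median was 286 bp and the share 23.3%, deeper inside genes 64 bp and 61.4%, and more than 100 kb from genes 48 bp and 75.6%. Across regions (n = 2447, not independent of each other), the folds had a Spearman's rho of 0.863 between OE libraries 1 and 4 and 0.952 between 2 and 3. It was 0.547 to 0.571 in the other 4 pairs of libraries, against 0.109 to 0.134 across the 3174 gene-end regions in those pairs. Regions deeper inside genes (0.310 to 0.385) and beyond 100 kb (0.434 to 0.473) lay between. These values describe the lists and have no test, and the points share their libraries.

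Most intergenic regions, 1964 of 2447 (80.3%), had a higher mean log2 fold in OE libraries 2 and 3 than in OE libraries 1 and 4, and 483 had a lower one. The share was 21.5% at gene ends, 69.5% deeper inside genes and 67.2% more than 100 kb from genes. Regions of the first kind had median folds of 13.5, 35.3, 31.6 and 9.21, a median width of 1208 bp and a median summit spread of 45 bp. Regions of the second kind had median folds of 15.97, 8.46, 7.63 and 11.4, a width of 799 bp and a spread of 108 bp. In fragments, the first kind had median pileups of 26, 227, 201 and 20, and the second 32, 53, 48 and 24. Background differed between the same libraries, and every region had to be listed by all 4 of them. The part of either in these differences was not tested.

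**Figure D2:**
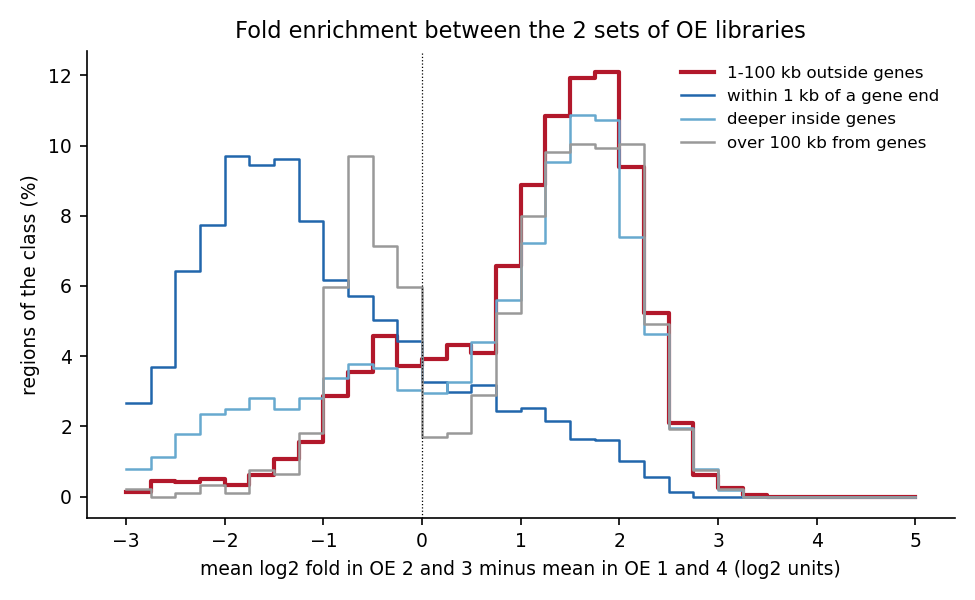
Distribution of the mean log2 fold in OE libraries 2 and 3 minus that in OE libraries 1 and 4, as a share of the regions of each class in bins of 0.25 (values beyond the axis are in the end bins). Among these regions, all listed by every OE library, most intergenic ones (80.3%) lie to the right of 0 and most gene-end ones to the left.

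The largest gaps in rank between the library sets fell at named places. The lead in OE libraries 1 and 4 was widest at the region by Aspg that also lies at Mir203, described above. Mfsd13a came next, with folds of 38.9, 5.33, 5.09 and 27.7, then Rab2a, a gene of vesicle transport, with 31.9, 2.66, 3.81 and 21.3. Igip and Gm9222 followed. The lead in OE libraries 2 and 3 was widest near Clybl, a mitochondrial enzyme gene, with folds of 8.48, 57.0, 70.2 and 5.90. B4galnt1, Tas2r130, Loxl1 and Sntn followed, and at Loxl1, which encodes a crosslinker of elastin, the folds were 9.98, 63.0, 88.7 and 6.81. These regions were picked for that gap, so it is a description only.

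Ranked by the mean percentile of their fold over the 4 libraries, the 20 leading regions had a mean percentile of 99.1 or more. In 19 of the 20 the mean log2 fold was higher in OE libraries 2 and 3 than in OE libraries 1 and 4, and in all 20 OE library 4 was the lowest. Their summits lay within 3 to 171 bp. The first lay 1590 bp from Camk2n1, which encodes an inhibitor of CaM kinase II (chr4:138452117-138456778, mm10), with folds of 517, 875, 1126 and 398 and pileups of 1035, 5585, 7086 and 876 fragments. The widest of the 20, at 8621 bp, lay 91335 bp from Tmem17, a gene of the ciliary transition zone, on chromosome 11, with folds of 271, 824, 1050.4 and 212. On the same chromosome a region 85869 bp from Ehbp1, a gene of endocytic transport, had folds of 379, 798, 831 and 233. These 3 regions had summits within 20 bp of each other across libraries.

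Of the 20, 8 lay beyond 50 kb, against 471 of all 2447 regions (19.2%), and 5 lay under 5 kb, against 458 (18.7%). The region nearest Stc1, the gene of the secreted glycoprotein stanniocalcin, lay 94285 bp away on chromosome 14 with folds of 232, 1149, 991 and 192. The region nearest Lsm14a, which encodes an RNA-binding protein of P-bodies, lay 70004 bp away with folds of 248, 965, 964 and 207. The region nearest Tbl1xr1, the gene of a subunit of nuclear corepressor complexes, lay 81524 bp away with folds of 327, 699, 766 and 223. All 3 were strongest in OE libraries 2 and 3. Cldn1, a tight junction gene 39089 bp from its region, was the 1 of the 20 with a higher mean log2 fold in OE libraries 1 and 4, with folds of 569, 409.5, 404 and 318. At Ndc1, a nuclear pore gene, OE library 1 was also the highest, with folds of 896, 833, 762 and 550.3. The region by Tas1r2, a taste receptor gene, lay 18684 bp from it and 48095 bp from the neural crest factor gene Pax7. Gm28455, Tfcp2l1, Rps6ka1, Fut1, Zc3h8, Chn2, Mterf1b, Dtl, Copz1, Hspb3 and Sys1 were nearest the rest, and their folds lay between 137 in OE library 4 at Hspb3 and 1002 in OE library 3 at Tfcp2l1.

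**Figure D3:**
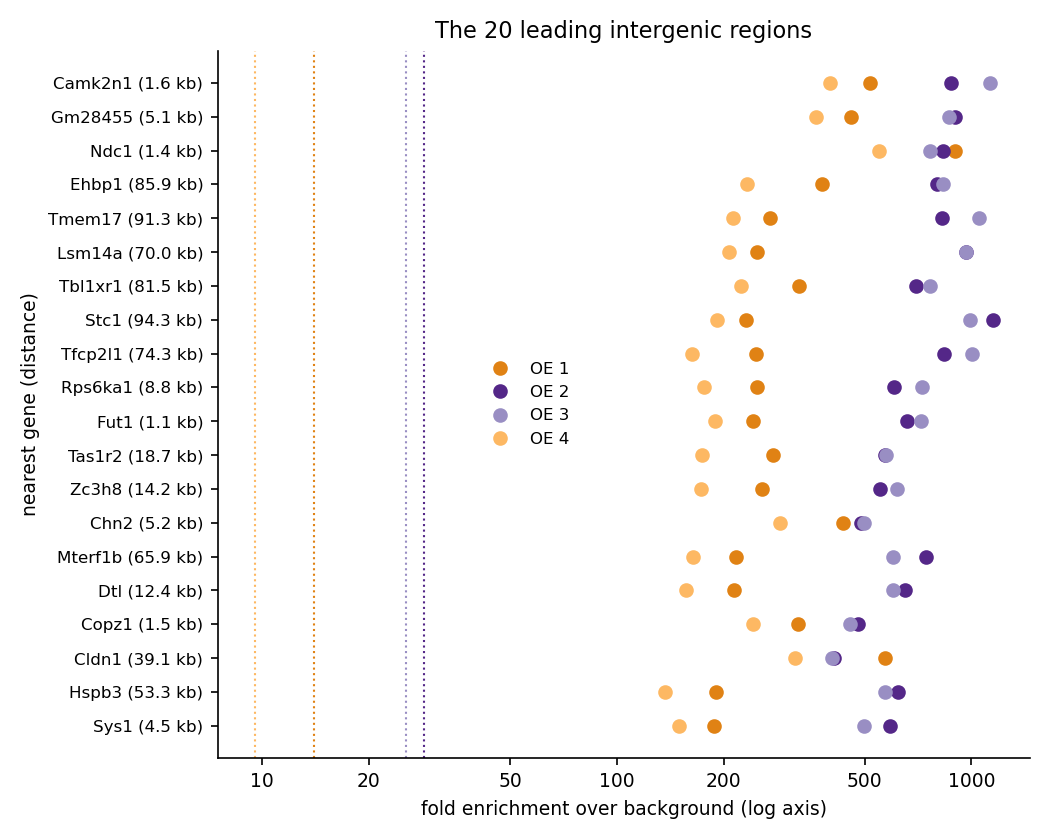
Fold enrichment (log axis) of the 20 leading intergenic regions in OE libraries 1 to 4, by nearest gene and distance. Dotted lines are each library's median over all 2447 regions (13.97, 28.5, 25.4 and 9.53), and the lowest of all points is 137, OE library 4 at Hspb3.

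Intergenic regions were densest close to genes. They numbered 458, 403, 634, 481 and 471 at 1 to 5, 5 to 10, 10 to 25, 25 to 50 and 50 to 100 kb, with a median distance of 17059 bp. Per megabase of sequence at those distances this came to 4.31, 4.16, 3.49, 2.90 and 2.55, a density that fell step by step. Over the whole class it was 3.33 per megabase, against 42.5 at gene ends, 3.83 deeper inside genes and 1.38 beyond 100 kb. Median folds stayed within a narrow span: in OE library 2 they were 28.4, 25.9, 28.8, 28.8 and 32.8 over the same steps, and in OE library 1 they were 13.0, 13.0, 13.8, 15.0 and 14.7. Density also varied between chromosomes, from 5.74 per megabase of intergenic sequence on chromosome 11 to 1.91 on chromosome 14. Of regions whose nearest gene has a known strand, 53.4% lay upstream, against 54.0% of the sequence. Inside a lncRNA gene lay 419 regions (17.1%), against 13.2% of the sequence. The strongest of these lay at Gm41436, in the space nearest Cldn1, and the next at Gm45918, Gm52564, Gm52821 and Gm41404.

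**Figure D4:**
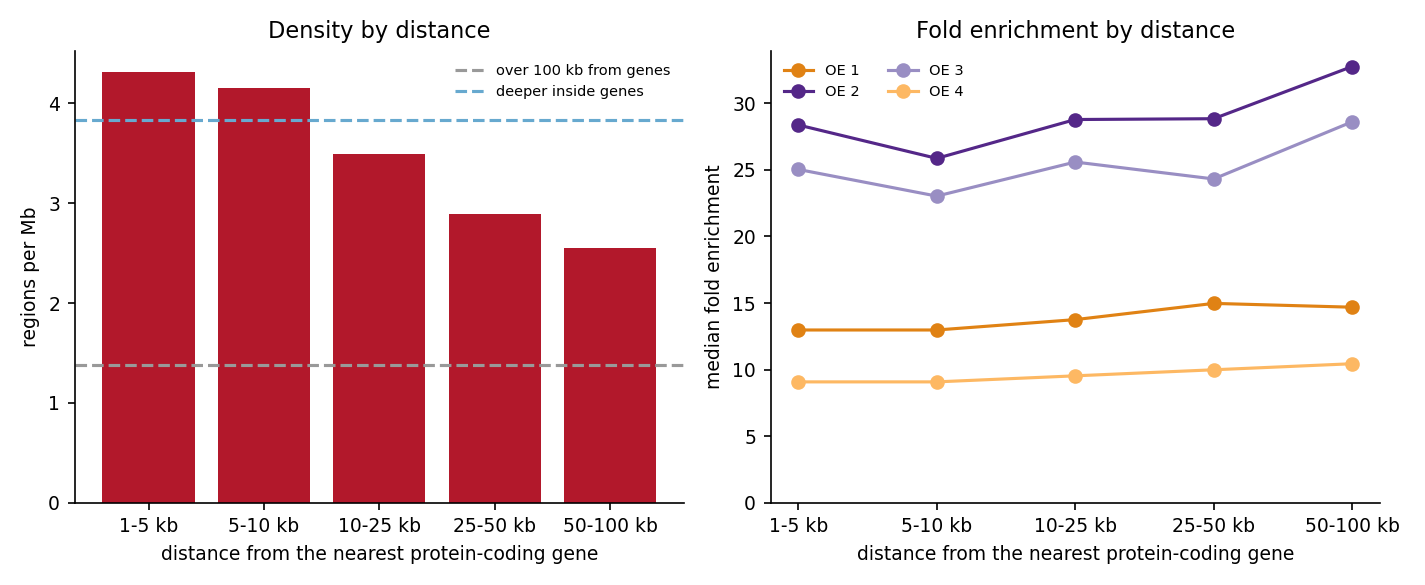
Left, intergenic regions per megabase of sequence at each distance from the nearest protein-coding gene, with dashed lines for regions deeper inside genes (3.83) and beyond 100 kb (1.38). Right, median fold enrichment at the same distances in OE libraries 1 to 4. Density fell from 4.31 at 1 to 5 kb to 2.55 at 50 to 100 kb, while the median fold in OE library 2 lay between 25.9 and 32.8.

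The rule has a threshold at each end. Just far enough from a gene to be called intergenic were the regions at C1qtnf2 (1006 bp), Upk3bl (1007 bp) and Smad6 (1015 bp), and just too close were those at Cnih3 (997 bp), Irf2bp1 (996 bp) and Polr2h (994 bp). In OE library 2 the folds were 97.2, 6.53 and 5.02 for the first 3 and 41.7, 79.9 and 14.6 for the others. At the 100 kb limit, Castor2, Ptger4 and Kctd15 were just inside with folds of 20.2, 42.0 and 61.1 in OE library 2, and Cd24a, Top1 and Stmnd1 just outside with 6.90, 67.9 and 112.

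Of 20665 protein-coding genes on chromosomes 1 to 19, 1994 were nearest to at least 1 intergenic region (9.65%). A region within 1 kb of an end was found for 16.8% of the same genes, and one deeper inside for 12.8%. Of the 1994 genes, 790 (39.6%) also had one of those, against 26.6% of all genes. Most of the 1994 had a single intergenic region (1649), 268 had 2, 58 had 3, and 19 had 4 or more. The length of intergenic sequence nearest to a gene had a median of 60.5 kb for the 1994 genes against 16 kb for all genes.

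Some genes gathered several regions. Tle3, a Groucho-family corepressor gene, and Cstad were nearest to 7 each, Socs3 and Cpn2 to 6, and Ermard and Acot11 to 5. Tmem17, Tbl1xr1, Fgf15 and Ptma were among 13 genes nearest to 4. Around Tle3 the regions ran from 2264 to 91508 bp away, and the strongest, 79315 bp away, had folds of 66.4, 146, 180 and 43.6. Around Socs3, which encodes an inhibitor of cytokine signalling, all 6 lay within 47.2 kb, the most regions found within 50 kb. The strongest of them, 30927 bp from the gene, had folds of 138, 529, 524 and 90.8, and the weakest, 1029 bp away, had 12.2, 29.0, 29.4 and 7.26. One of the 6 was higher in OE libraries 1 and 4, with folds of 54.9, 11.8, 10.6 and 44.5. The next densest groups each held 5 regions in under 50 kb, one nearest to the EMT factor gene Snai1 or to Ube2v1 and the other nearest to Dnajb12 or the stress-induced gene Ddit4. The Snai1 group included the paired E-box window of Gm31619 printed above. Of all 2447 regions, 860 (35.1%) had another within 50 kb, and the median distance to the next was 134 kb.

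The gene lists follow, each read against the 9.65% of all genes, with no test. They were chosen with earlier results of these data known, so a share above that of all genes is a description and not independent support. Over the 16 lists together, 100 of 329 genes on chromosomes 1 to 19 (30.4%) were nearest to a region. List genes have wide flanks, so the share was also set beside genes with like flanks. Among genes with 50 to 100 kb of intergenic sequence it was 37.5% for the 56 list genes, against 20.03% for all genes, and with 100 to 400 kb it was 41.3% for 126 list genes, against 25.6%. With less than 10 kb it was 2.08% for 48 list genes, against 1.75%. Single lists were not matched for flanks, and their median flank ran from 6.75 kb (ribosomal proteins) to 144.5 kb (migration and guidance). A share above 9.65% in a list with wide flanks is therefore not by itself an excess.

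**Figure D5:**
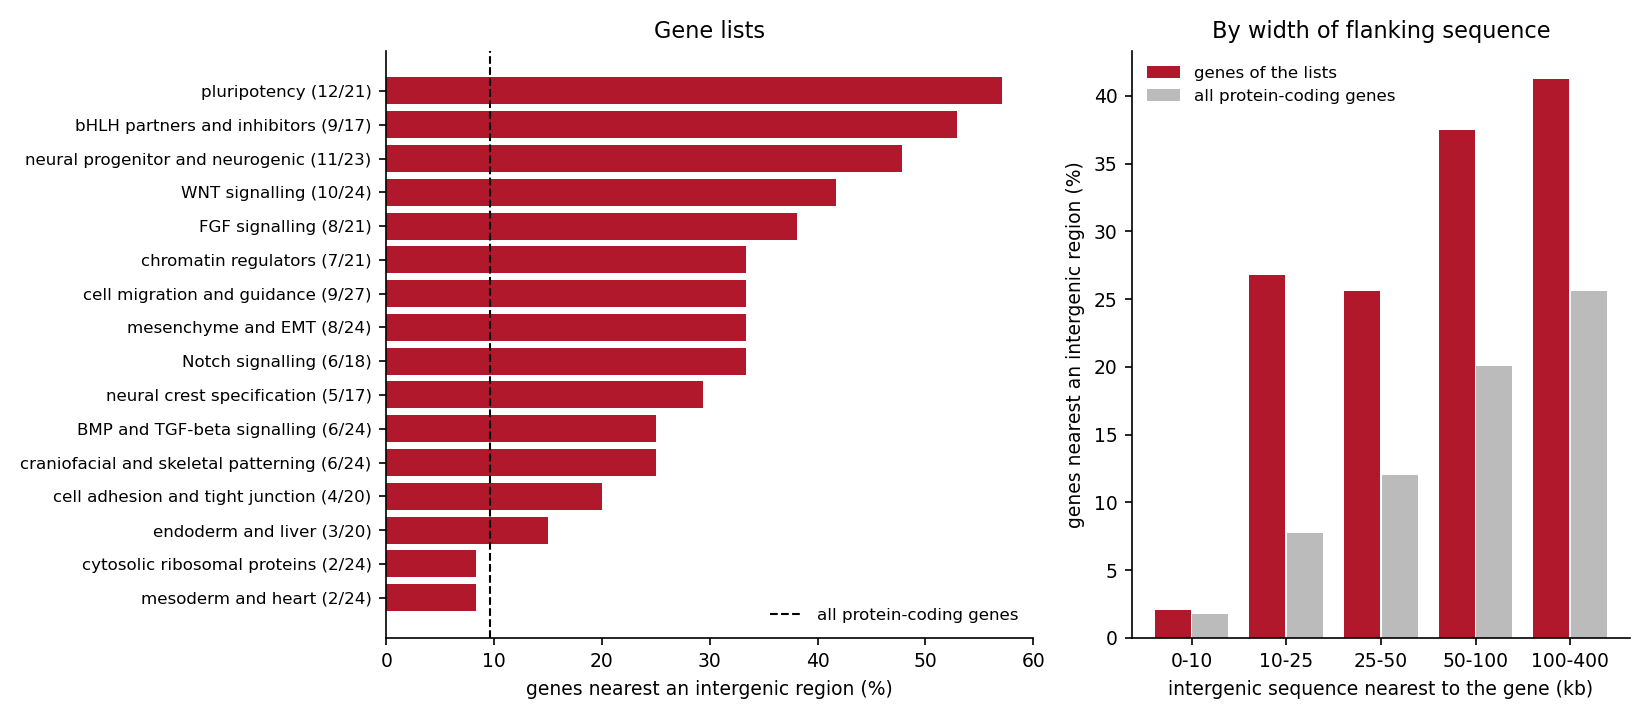
Left, share of the genes of each list that were nearest to an intergenic region, with the count and the genes tested in brackets, and the 9.65% of all protein-coding genes as a dashed line. Right, the same share by the length of intergenic sequence nearest to the gene, for genes of the lists and for all genes. The highest share was that of the pluripotency list (57.1%) and the lowest those of the ribosomal protein and heart lists (8.33%).

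Of 17 genes of bHLH factors, their partners and their inhibitors, 9 (52.9%) were nearest to a region. The Id genes, whose products bind bHLH proteins and keep them from DNA, were all 4 among them. Id1 had 3 regions, the strongest 6469 bp away with folds of 106, 379.7, 352 and 83.1. Id4 had one 15660 bp away with folds of 23.5, 67.9, 71.8 and 23.2. Id2 had a region 2767 bp away with folds of 92.3, 11.9, 13.98 and 55.8, so here OE libraries 1 and 4 were the high ones. The mesodermal bHLH gene Tcf15 had folds of 34.4, 50.5, 56.9 and 10.4 at a region 14286 bp away. Tcf3, an E-protein gene, had no intergenic region.

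Among 18 Notch signalling genes 6 had one (33.3%). Hes1, the effector repressor gene, was nearest to 4 regions that followed both patterns. One 56305 bp away had folds of 254, 57.7, 42.9 and 129, and one 2477 bp away had 159.7, 14.6, 16.5 and 48.6. One 88352 bp away had folds of 67.9, 147, 158 and 41.8, and one 93866 bp away had 26.5, 148, 115 and 19.98. The first pair was higher in OE libraries 1 and 4 and the second in OE libraries 2 and 3. The receptor gene Notch1 had one 13340 bp away with folds of 75.9, 313, 227 and 49.0, and the ligand gene Dll1 one 4270 bp away with 10.98, 36.2, 35.0 and 8.63. Notch2 had none.

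Pluripotency and neural genes include several early regulators. Of 21 pluripotency genes 12 had an intergenic region (57.1%), and of 23 neural progenitor genes 11 (47.8%). Sox2, which belongs to both lists, had one 20376 bp away with folds of 36.9, 219.8, 127 and 34.96. Pou3f1, a POU factor gene of the early neural plate, had one 7806 bp away with folds of 33.4, 117, 80.3 and 20.9, and Lhx2 one 55205 bp away with 21.5, 43.4, 37.7 and 10.4. All 3 were highest in OE library 2. Nanog and Sox21 had none.

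Signalling ligands and their feedback genes came next. FGF signalling genes had an intergenic region in 8 of 21 cases (38.1%). Fgf15 and Fgf4 are neighbours on chromosome 7, and 5 regions lay between positions 144876850 and 144902176 there (mm10). The strongest, 7714 bp from Fgf15, had folds of 182, 496, 536 and 145, and the one nearest Fgf4, 11604 bp away, had 46.4, 187, 227 and 26.8. The other 3 had mean folds of 8.24 to 13.0. Spry4, an inhibitor of FGF signalling, had a region 1998 bp away with folds of 80.9, 326, 236 and 75.8. Fgf1 had none.

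WNT signalling genes had one in 10 of 24 cases (41.7%). The receptor gene Fzd1 led, 67184 bp from a region with folds of 62.9, 229, 147 and 32.7. Lef1, the nuclear effector, followed with 31.4, 109, 82.8 and 22.7, and the ligand gene Wnt11 with 26.95, 63.0, 61.6 and 15.9. BMP and TGF-beta genes had 6 of 24. Smad7, an inhibitor of the pathway, led with 9.79, 48.0, 35.7 and 11.8, before Smad5 and the ligand gene Bmp7. Wnt1 and Bmp2 had none.

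TWIST1 is best known from neural crest, mesenchyme and the face. Neural crest genes had an intergenic region in 5 of 17 cases (29.4%), mesenchyme and EMT genes in 8 of 24 (33.3%) and craniofacial genes in 6 of 24. The median flanks of these lists were 121.5, 84.5 and 101.0 kb in that order. Among all genes the share was 20.03% with 50 to 100 kb and 25.6% with 100 to 400 kb. Mycn had one 15815 bp away with folds of 19.96, 56.4, 53.4 and 14.1, and Pax7 and Tfap2a followed with lower ones. Fn1, the fibronectin gene, had folds of 54.4, 111, 145 and 26.3 at a region 87933 bp away. Lox, which crosslinks collagen, had 137, 75.4, 67.5 and 69.5 at a region 13523 bp away, with OE library 1 apart from the rest, and Col3a1 had 40.9, 147, 87.2 and 18.2. Sox11 had 44.9, 156, 149.2 and 30.3 at a region 14981 bp away, followed by Gsc and Runx1. Sox5, Sox10, Pax3, Foxd3, Snai2, Zeb1, Zeb2, Prrx1 and Alx1 were among the genes of these lists with none.

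The remaining lists ranged widely. Genes of migration and axon guidance were near one in 9 of 27 cases (33.3%), led by Sema3f with folds of 51.9, 166, 154 and 36.8, Efnb2, an ephrin gene 95598 bp from its region, and Robo1. Chromatin regulators had 7 of 21 (33.3%), led by the remodeller gene Chd7 with folds of 53.4, 214, 215 and 37.2, and at Chd3 the folds were 53.9, 10.0, 11.1 and 27.2. Cell adhesion and tight junction genes had 4 of 20, with Cldn1 first, then Cldn5 and Tjp1. Endoderm and liver genes had 3 of 20 (15.0%), Gsc, Foxa1 and Cdx2. Mesoderm and heart genes had 2 of 24 (8.33%), Tcf15 and Mef2c, and ribosomal protein genes 2 of 24 (8.33%), Rpl11 and Rpl27. Both shares were near the 9.65% of all genes, but the flanks of these lists differ. The median flank was 76.75 kb for heart genes and 6.75 kb for ribosomal protein genes. Among all genes the share was 20.03% with 50 to 100 kb and 1.75% with less than 10 kb. Epha3, Chd1, Cldn3, Sox17, T (Brachyury) and Rpl3 had none. Across all lists a count says only that a region lies nearer to that gene than to another, within 1 to 100 kb of it.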

How the data were processed

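TWIST1 ChIP-seq was analysed from 7 of the 9 libraries of the series, grouped by their titles: 4 OE ChIP, 2 KO ChIP and 1 KO input. The submitters' processing notes name MACS2, Picard, BWA and Trimmomatic, and the builds mm10 and GRCm38.p5. Tool versions, thresholds and the caller's control sample were not given in the sources used here. Each could alter the lists and the fold of a peak. The authors deposited a separate list for each library. Each deposited peak carries a fold enrichment over background (a linear ratio) and −log10 of its p-value and q-value, all made by the authors' caller. The deposited score is −log10 q times 10 as a whole number and was not used further.

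Lists were read with Python 3.11.15, pandas 2.3.3, numpy 2.4.6 and scipy 1.17.1, and figures drawn with matplotlib 3.10.9. Peaks on chromosomes 1 to 19 were merged at 1 bp, and the strongest peak of a library in a region is the one with the highest −log10 p. Gene positions came from RefSeq (GRCm38.p6, whose main chromosomes have the coordinates of mm10), limited to 20665 protein-coding genes, and positions count from 1. Intergenic sequence was measured on a grid of 500 bp. Strand was known for 79.6% of the genes, through RefSeq promoter windows. Pileup and background were solved from the fold, (pileup + 1)/(background + 1), and a Poisson p-value.

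Single values per library were compared by exact permutation (OE against KO) or exact sign flips (class against class), with Benjamini-Hochberg adjustment over the 4 class comparisons. These p-values measure the spread between these libraries only. The procedures were tested on simulated data. OE and KO ChIP libraries share the numbers 2 and 3, and 2 pairs are too few to show whether these numbers pair them.

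The regions, gene lists and rule for named genes were chosen with earlier results of these data known. The text names the genes nearest the 20 leading regions, the 10 genes with most regions, the 3 leading genes and the first gene without a region of each list, regions at the distance limits, those with the largest gaps between libraries, the 3 densest groups in 50 kb and the 5 leading regions at lncRNA genes. Other genes named, among them Id2, Loxl1, the remaining regions of Hes1 and those at miRNA hairpins and lncRNA windows, were chosen after their values were seen. A planned search for E-boxes at all summits needs a genome and was not run. Alternatives tried were a q-value limit, the rule for sharing, fewer libraries, the removal of KO and input regions, both distance limits, the annotation, the summary and measure of strength, and leaving out each library.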

Additional observations from a re-analysis of the deposited data

Results flagged for a closer look

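Over 120 sets of 4 values from OE libraries 1 to 4, 4 had 1 library far from the other 3 by the gap between it and its nearest neighbour relative to the range. For independent sets, chance flags about 1 in 20. These sets share the same libraries, so their count cannot be judged against that rate. The region nearest Lox had a fold of 137 (136.75) in OE library 1, against 75.4, 67.5 and 69.5 in OE libraries 2 to 4.

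The other 3 concern OE library 4, which has the shortest list. It listed 52.3% of the intergenic regions built from the other libraries, against 91.5% to 99.4% for the other libraries in turn. For gene-end regions it listed 76.5%, and for regions deeper inside genes 56.0%. The commonest background was 1.2 fragments in OE library 4 and 1.00 in OE library 1, and its part in these shares was not tested.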

How the results depend on the processing

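Of 59 alternative values of the differences, 45 kept their direction and 14 turned. Of 26 alternative counts of regions or genes, 7 moved by more than 1.5 times. The tests allow no p under 0.0667 (OE against KO) or 0.125 (class against class), so their p-values say nothing of stability. The difference in intergenic share between OE and KO peaks (0.677 points) had no stable direction: it was -1.74 at −log10 q of at least 10, -0.0715 beyond 5 kb from a gene, -0.0313 up to 50 kb and -13.95 with all annotated genes. Leaving out 1 library gave -0.676 to 2.40, below 0 without OE library 2, without OE library 3 or without KO library 3. With the replicate block, pairing OE and KO libraries by the numbers 2 and 3, it was 4.08 points (exact sign-flip permutation p = 0.5, the smallest that 2 pairs allow), and nothing in the labels says that these numbers mark a shared culture.

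Support in the library left out, intergenic minus gene-end, turned to 9.86 points with summits within 100 bp, and minus deep-inside to 0.528. Leaving out 1 library gave -7.48 to -3.51 and -1.80 to -0.0141. The median log2 fold, intergenic minus gene-end, ran from 0.37 to 1.10 without 1 library and was -0.38 with OE libraries 1 and 4 only. It was 0.33 with at least 3 of 4 libraries and 0.13 with OE libraries 2 and 3 only. Intergenic minus deep-inside turned to -0.0099 with at least 3 of 4 libraries, -0.038 beyond 5 kb and -0.14 with OE libraries 1 and 4 only, and ran from -0.0062 to 0.12 without 1 library. Of these reversals the cause was not tested.

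The number of intergenic regions (2447) was 1612 at −log10 q of at least 10, 4959 with at least 3 of 4 libraries, 2461 to 4693 without 1 library and 22894 with OE libraries 2 and 3 only. Genes nearest a region (1994) numbered 3519 with at least 3 of 4 libraries, 2000 to 3376 without 1 library, and 8842 with OE libraries 2 and 3 only. Fewer libraries required means more regions by construction. The search for E-boxes at all summits, and its other window widths, were not run. The number of reads per library is unknown, so what depth limits could not be measured.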
